A study of Mus musculus with 12 samples.

Results

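The liver makes most of the complement and coagulation proteins of the blood, and 35 of their genes are described here, 17 of complement and 18 of coagulation and fibrinolysis. They were taken by symbol from the authors' expression table of 57010 genes, and each was found there exactly once. The 12 libraries came from livers of male wild-type C57BL/6J mice; the labels number the liver samples 1 to 6 in each group, and each is taken here to be another mouse. Of these, 6 mice had received Aspergillus oryzae A02, a food fungus, grown to be rich in selenium, by gavage each day at 0.5 mg selenium per kg in saline, and 6 control mice are labelled as untreated. All mice were 6 weeks old at assignment, after 7 days of acclimatization, and ate a normal diet, and 10 mice per group are named in the protocol. The design text gives 8 weeks of feeding and the sample descriptions 14 weeks, without saying whether the second number is an age. Gavage of saline alone is not mentioned for the controls. Selenium was given as part of the fungus, and what is due to either cannot be told apart. The groups are called selenium and control livers below.

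Complement is a cascade of plasma proteases that marks microbes and damaged cells. The classical pathway starts from antibody, the lectin pathway from sugars bound by mannose-binding lectins, and the alternative pathway from C3 itself. All pathways cleave C3 and then C5, and the terminal components C5b to C9 assemble a pore in the target membrane. Coagulation is a second protease cascade that ends in thrombin, which turns fibrinogen into fibrin. Plasminogen later dissolves the fibrin, and protein C and protein S restrain the cascade. Hepatocytes secrete nearly all of these proteins, and several of them, fibrinogen and C3 among them, are acute phase proteins whose synthesis increases in inflammation.

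All 35 genes were abundant enough to be tested, and none passed the test between selenium and control livers. Values are TPM, the share of a gene in its library's transcripts after correction for transcript length, so that levels of different genes can be compared. Averages over the 12 libraries ran from 13.6 TPM for Pros1 to 2001 TPM for Fgg, with 23 of the 35 above 100 TPM, and among the 9980 genes that reached 1 TPM in at least 6 libraries the members ranked from 57 to 2991. limma, fitted to log2(TPM + 1) of those 9980 genes, called 0 of the 35 at a Benjamini-Hochberg adjusted p of 0.05, where it called 0.331% of all genes tested. At an unadjusted p of 0.05 it gave 4 of the 35, C8b and Fga higher and C8a and Klkb1 lower in selenium livers, against 18.5% of all genes tested, so the members' share lay below the background. Higher were 2 of the 35, against 7.01% of all genes, and lower were 2, against 11.4%. This count depended on the scaling and on single livers. After median-of-ratios scaling it was 8, all higher and without C8a and Klkb1, against 23.1% of all genes in both directions. It was 11 without selenium 5, 2 without selenium 3 and 2 without control 5, against 21.0%, 16.6% and 13.9% of all genes in those fits. In 0 of the 35 did the 6 selenium and 6 control livers separate without overlap, against 1.63% of all genes tested. The 95% interval of the log2 change lay within -1 to 1 for 34 of the 35, Fga being the exception at 0.017 to 1.23. In whole liver, fewer cells of a type and less RNA per cell cannot be told apart, and the depth behind the TPM values is unknown.

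Complement and coagulation genes had more positive than negative log2 changes, selenium minus control. Of 17 complement genes 11 were positive, with a median of 0.048, and of 18 coagulation genes 13, with a median of 0.11. Over all genes tested 45.4% were positive and the median was -0.026. Rescaled without the mitochondrial-encoded genes, 7 of 17 complement and 9 of 18 coagulation genes were positive, with medians of -0.048 and 0.017. Over all genes in that fit 32.1% were positive and the median was -0.11. The direction of small changes thus depends on the scaling. In both fits the medians of complement and coagulation genes lay above that of all genes. Members vary together between livers, and these counts are descriptions without a test.

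**Figure D1:**
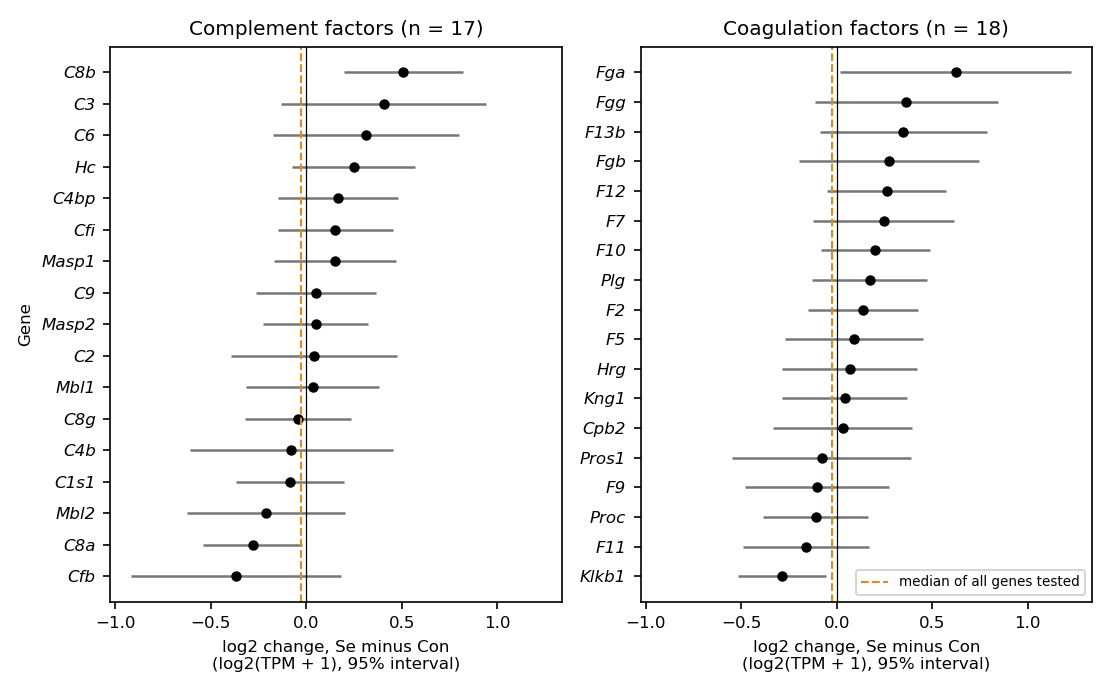
Log2 change of each complement gene (left) and coagulation gene (right), selenium (Se) minus control (Con), on the log2(TPM + 1) scale, with points for the estimate and bars for limma's 95% interval; n = 6 livers per group. The dashed line is the median of all genes tested, -0.026, and the bars of 31 of the 35 genes include 0.

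Of the genes that start or restrain the classical and lectin pathways, none passed the test. C4b, the fourth component, which is split into the anchor of the C3 convertase, had 218, 436 and 566 TPM in selenium livers, against 259, 406 and 550.5 TPM in control livers (lowest, median and highest of 6 livers, here and wherever 3 values are given). The groups overlapped almost fully, and the log2 change was -0.079 (SE 0.25, limma adjusted p = 0.898). C4b shares long near-identical stretches with C4a, so its reads cannot be assigned with certainty. Mbl2 and Mbl1, the mannose-binding lectins, averaged 276 ± 63.4 TPM in selenium livers and 322 ± 79.3 TPM in control livers for Mbl2, and 181 ± 44.2 TPM in selenium livers and 175 ± 28.0 TPM in control livers for Mbl1 (mean ± SD, n = 6 per group here and below). Their proteases Masp1 and Masp2 had log2 changes of 0.15 and 0.048, with Masp1 the least abundant complement gene at 18.9 ± 3.31 TPM in selenium livers and 17.1 ± 3.95 TPM in control livers. C1s1, a protease of the C1 complex, C2, the protease of the classical convertase, and C4bp, an inhibitor that binds C4b, had log2 changes of -0.086, 0.040 and 0.17. C1s1 has a near-identical neighbour, C1s2, and its value is uncertain for the same reason. Across these 8 genes the log2 changes ran from -0.21 to 0.17, and all adjusted p lay at or above 0.576 in limma.

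C3 and Cfb varied most between livers among the complement genes. C3, the central component on which all pathways meet, had 852, 1803 and 3002 TPM in selenium livers, against 985, 1216 and 1595 TPM in control livers. Of the selenium livers, 4 lay above every control, selenium 1 lay within the controls' range and selenium 5 below it. The log2 change was 0.41 (SE 0.25, limma adjusted p = 0.412). Cfb, the protease of the alternative convertase, had 525.8, 884 and 1040.5 TPM in selenium livers, against 591, 944 and 1828 TPM in control livers, with the highest value in control 5 and the lowest in selenium 1. Its log2 change was -0.37 (SE 0.26, limma adjusted p = 0.469). C3 and Cfb thus had differences of opposite sign, and neither passed the test. Cfi, the protease that inactivates C3b and C4b, averaged 254 ± 44.7 TPM in selenium livers and 227 ± 27.7 TPM in control livers, a log2 change of 0.15.

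In the terminal pathway the genes of the C8 chains differed from each other. C8 consists of an alpha, a beta and a gamma chain, encoded by C8a, C8b and C8g. C8b had 96.7, 128 and 166 TPM in selenium livers, against 72.7, 90.9 and 111 TPM in control livers. All selenium livers but selenium 5 lay above the highest control, and the log2 change of 0.51 (SE 0.14, limma adjusted p = 0.112) was the one with the smallest p of all 35 genes. C8a had 230.4, 275 and 317 TPM in selenium livers, against 276, 328 and 404 TPM in control livers. Here 3 selenium livers, 2, 3 and 5, lay below the lowest control, and the log2 change was -0.28 (SE 0.12, limma adjusted p = 0.233). C8g had 232, 269 and 376 TPM in selenium livers, against 278, 285 and 323 TPM in control livers, a log2 change of -0.043 (SE 0.13, limma adjusted p = 0.894). The selenium livers were the more scattered for C8g, with 2 above and 4 below all controls.

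The ratio of C8b to C8a transcripts was higher in selenium livers. It was 0.408, 0.446 and 0.671 at the lowest, median and highest selenium liver, against 0.182, 0.277 and 0.401 in control livers. The groups did not overlap, although the lowest selenium liver, selenium 6, and the highest control, control 6, nearly met. The log2 ratio differed by 0.79 (two-sided exact permutation test, p = 0.00216, the smallest that 6 against 6 allow, n = 6 per group). Ratios were tested for 13 pairs of genes that encode subunits or partners of a complex or are neighbours in the genome, a test chosen after seeing the values, and C8b over C8a alone passed after Benjamini-Hochberg adjustment over the 13 (adjusted p = 0.0281). Of all 595 pairs that the 35 genes can form, 4 ratios did not overlap, or 0.672%, and C8b was in each of the 4. By size of the log2 difference C8b and C8a ranked 7 among the 595, and Cfb and Fga were first at 0.99. No adjustment was made over the 595. A ratio within a library is free of that library's scaling, but it shows only unequal change. The call held in 7 of 12 fits that left out 1 library, those without a control and that without selenium 5. Without selenium 1, 2, 3, 4 or 6 the exact permutation adjusted p was 0.0563, 0.0985, 0.0844, 0.0563 and 0.0563, and it was 0.103 without control 5 and selenium 3 and 0.0929 among the 8 libraries with low Dbp, a clock gene taken up further on; the log2 difference lay between 0.67 and 0.86 in these fits. In the last 2 of them the exact p, 0.00794 and 0.0286, was the smallest that so few libraries allow. The number of the 13 ratios past the threshold was 5 without selenium 5 and 6 without control 6. In the authors' deposited table C8a had a positive log2 change, although its mean TPM there was 271 in selenium livers and 331 in control livers. The difference between the log2 changes of C8b and C8a was thus 0.40 in the authors' deposited table, smaller than from TPM.

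**Figure D2:**
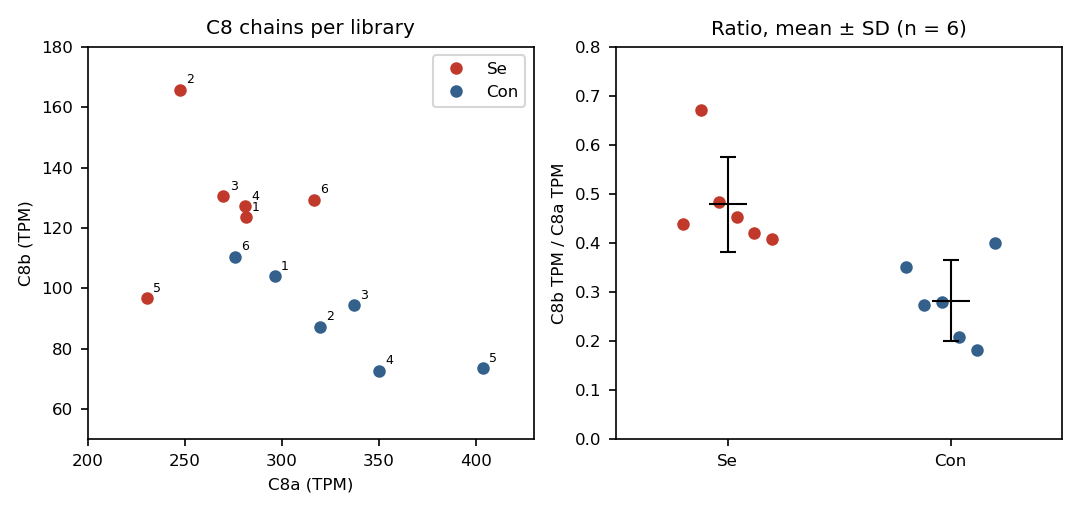
Left, C8b against C8a in TPM, a point for each library, numbered by mouse, selenium (Se) in red and control (Con) in blue. Right, C8b TPM divided by C8a TPM in each library with mean ± SD (n = 6 per group); the selenium livers lie between 0.408 and 0.671, the controls between 0.182 and 0.401.

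C8a and C8b lie close together on mouse chromosome 4, and the bases before their starts are shown because their ratio was the one called. Each is the 150 bases upstream of the RefSeq start (GRCm38.p6), 5′ to 3′ on the gene's strand, for C8b chr4:104766167-104766316 on the plus strand and for C8a chr4:104876399-104876548 on the minus strand. Capitals mark GTTAAT, a half-site of the hepatocyte factor HNF1, TTGCNNAA, a C/EBP motif, or CTGGGA, the core of interleukin-6 response elements, on either strand.
C8b: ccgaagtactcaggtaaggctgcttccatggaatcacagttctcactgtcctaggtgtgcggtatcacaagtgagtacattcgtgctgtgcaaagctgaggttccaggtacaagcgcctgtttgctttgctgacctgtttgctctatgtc
C8a: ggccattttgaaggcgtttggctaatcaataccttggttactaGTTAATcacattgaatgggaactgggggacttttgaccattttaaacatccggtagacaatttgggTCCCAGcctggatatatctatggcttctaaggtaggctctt
C8a holds GTTAAT and, on the opposite strand, CTGGGA in this window, and C8b holds none of the 3 there. Farther upstream, within 250 bases, C8b holds GTTAAT on the opposite strand. Such matches are descriptions of letters, not of binding.

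The remaining terminal genes did not pass the test. Hc, which encodes C5, had 141, 232 and 275 TPM in selenium livers, against 157, 185 and 204 TPM in control livers. Selenium livers 1, 3, 4 and 6 lay above every control, and selenium 5 below, giving a log2 change of 0.25 (SE 0.15, limma adjusted p = 0.404). C6, the next to join the pore, had 62.1, 70.8 and 127 TPM in selenium livers, against 38.0, 73.6 and 79.3 TPM in control livers. The highest C6 value was in selenium 2, and the lowest were in controls 4 and 5, with a log2 change of 0.31 (SE 0.23, limma adjusted p = 0.494). C9, which forms the wall of the pore, had 218, 325 and 349 TPM in selenium livers, against 217, 321 and 340.5 TPM in control livers. Of the selenium livers, 5 lay within 324 to 349 TPM, and selenium 5 stood apart at the bottom, as low as control 6, the lowest control. Its log2 change was 0.052 (SE 0.15, limma adjusted p = 0.885).

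The 4 genes of fibrin and its crosslinking had the largest positive log2 changes among the coagulation genes, none past the test. Fibrinogen is built from pairs of alpha, beta and gamma chains, encoded by Fga, Fgb and Fgg. Fga had 994, 2600.4 and 3069 TPM in selenium livers, against 813, 1526 and 1899 TPM in control livers. Selenium livers 2, 3, 4 and 6 lay above every control, while selenium 1 and 5 lay inside the controls' range. Fgg had 1180.0, 2604 and 2773 TPM in selenium livers, against 1212, 1710.3 and 2369 TPM in control livers, and Fgb had 709, 1488 and 1966 TPM in selenium livers, against 893, 1045 and 1321 TPM in control livers. For both, the same 4 selenium livers lay above every control and selenium 5 lay below all of them. The log2 changes were 0.62 (SE 0.28, limma adjusted p = 0.258) for Fga, 0.36 (SE 0.22, limma adjusted p = 0.408) for Fgg and 0.27 (SE 0.22, limma adjusted p = 0.538) for Fgb. Without selenium 5 the log2 change of Fga was 0.84 (limma adjusted p = 0.0946). F13b, the carrier subunit of the factor XIII that crosslinks fibrin, had 32.3, 64.0 and 71.0 TPM in selenium livers, against 30.4, 46.5 and 48.8 TPM in control livers, with 4 selenium livers, 1, 3, 4 and 6, above every control. Its log2 change was 0.35 (SE 0.20, limma adjusted p = 0.388).

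The 3 fibrinogen genes form a cluster on mouse chromosome 3, and their upstream bases are shown because their transcripts varied together. Each is again the 150 bases before the RefSeq start (GRCm38.p6), with the same letters in capitals, at chr3:83007574-83007723 on the plus strand for Fgg, chr3:83026003-83026152 on the plus strand for Fga and chr3:83049864-83050013 on the minus strand for Fgb.
Fgg: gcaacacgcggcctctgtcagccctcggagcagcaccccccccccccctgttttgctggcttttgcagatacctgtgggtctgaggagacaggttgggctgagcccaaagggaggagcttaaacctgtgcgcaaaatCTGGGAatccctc
Fga: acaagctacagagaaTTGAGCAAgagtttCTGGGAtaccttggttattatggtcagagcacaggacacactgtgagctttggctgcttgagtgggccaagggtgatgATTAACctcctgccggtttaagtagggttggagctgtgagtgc
Fgb: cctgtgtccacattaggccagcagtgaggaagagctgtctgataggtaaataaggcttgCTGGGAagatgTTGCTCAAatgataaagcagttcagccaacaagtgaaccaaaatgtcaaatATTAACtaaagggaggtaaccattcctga
All 3 hold CTGGGA, and Fga and Fgb also hold TTGCNNAA, in Fga on the opposite strand, and GTTAAT on the opposite strand. Within 250 bases upstream, CTGGGA on either strand was present in 12 of the 27 members with a RefSeq promoter, or 44.4%, and in 29.8% of all 27025 genes with one. TTGCNNAA was in 9 of the 27, or 33.3%, against 10.8%, and GTTAAT in 7, or 25.9%, against 7.49%. No motif overlaps another in the printed windows, and these shares carry no test.

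**Figure D3:**
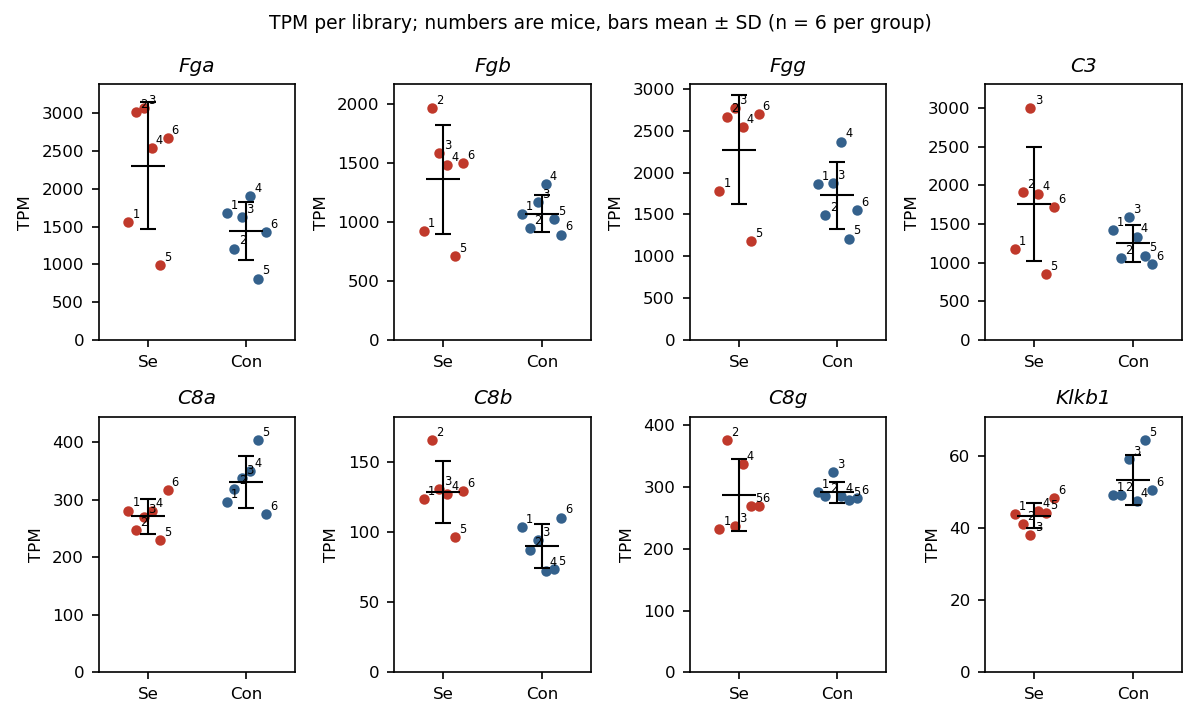
TPM of Fga, Fgb, Fgg, C3, C8a, C8b, C8g and Klkb1 in each library, selenium (Se, red) left of control (Con, blue), numbered by mouse, with mean ± SD (n = 6 per group). Selenium 2, 3, 4 and 6 lie above every control for Fga, Fgb, Fgg and C3, while selenium 5 is the lowest selenium liver in each of these panels.

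Among the factors that generate thrombin, F10, F7, F2 and F5 had positive and F9 a negative log2 change, none past the test. F10, the protease that forms prothrombinase, had 168, 221 and 275 TPM in selenium livers, against 163, 190.4 and 205 TPM in control livers. Of the selenium livers, 4 lay above the highest control, and the log2 change was 0.20 (SE 0.13, limma adjusted p = 0.441). F7, which starts coagulation with tissue factor, averaged 33.8 ± 8.12 TPM in selenium livers and 28.1 ± 5.02 TPM in control livers, a log2 change of 0.24. F2, prothrombin, averaged 628 ± 87.5 TPM in selenium livers and 571 ± 80.4 TPM in control livers (0.14 on the log2 scale), F5, the cofactor of F10, 53.4 ± 13.6 TPM in selenium livers and 49.2 ± 7.71 TPM in control livers (0.089), and F9, the factor lacking in haemophilia B, 66.3 ± 14.4 TPM in selenium livers and 71.1 ± 16.7 TPM in control livers (-0.10). The 6 vitamin K-dependent members, F2, F7, F9, F10, Proc and Pros1, had 3 positive and 3 negative log2 changes, with a median of 0.028.

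Of the contact system, Klkb1 was the gene with the smallest p among the coagulation members. Klkb1, which encodes plasma prekallikrein, had 38.1, 44.0 and 48.2 TPM in selenium livers, against 47.4, 49.8 and 64.3 TPM in control livers. In 5 of 6 selenium livers it lay below the lowest control, and selenium 6 overlapped the controls' lower end. The log2 change was -0.29 (SE 0.11, limma adjusted p = 0.189). F11, its neighbour and closest relative, averaged 27.3 ± 2.35 TPM in selenium livers and 31.4 ± 7.21 TPM in control livers, and at a log2 change of -0.16 all selenium livers lay within the controls' range. F12, the Hageman factor, had 53.6, 76.9 and 87.7 TPM in selenium livers, against 45.5, 63.4 and 69.0 TPM in control livers, with 4 selenium livers above every control and a log2 change of 0.26 (SE 0.15, limma adjusted p = 0.370). Kng1, which encodes kininogen, the source of bradykinin, and has a close relative in Kng2 that makes its reads uncertain, had 783, 1098 and 1312 TPM in selenium livers, against 864, 982 and 1246 TPM in control livers. The groups overlapped, with selenium 1 and 5 below all controls and selenium 2 above them, and the log2 change was 0.042 (SE 0.15, limma adjusted p = 0.914). The bases upstream of Klkb1 at chr8:45294836-45294985 (minus strand, GRCm38.p6), shown as those of the coagulation gene with the smallest p, hold CTGGGA in capitals.
Klkb1: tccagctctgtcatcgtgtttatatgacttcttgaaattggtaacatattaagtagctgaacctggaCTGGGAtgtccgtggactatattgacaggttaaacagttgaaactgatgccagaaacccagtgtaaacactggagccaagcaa
No other motif of the 3 was in this printed part.

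None of the 5 anticoagulant and fibrinolytic members passed the test, with log2 changes from -0.11 to 0.17. Plg, the plasminogen that dissolves fibrin, averaged 818 ± 126 TPM in selenium livers and 724 ± 103 TPM in control livers, a log2 change of 0.17, with 4 selenium livers above every control. Cpb2, the carboxypeptidase that slows fibrinolysis, averaged 202 ± 42.7 TPM in selenium livers and 198 ± 42.5 TPM in control livers (0.030). Hrg, a histidine-rich plasma glycoprotein, averaged 660.2 ± 146 TPM in selenium livers and 624 ± 105 TPM in control livers (0.067). Proc, protein C, averaged 241 ± 41.2 TPM in selenium livers and 258 ± 25.7 TPM in control livers (-0.11), and its cofactor Pros1, protein S, 13.6 ± 5.23 TPM in selenium livers and 13.6 ± 2.09 TPM in control livers (-0.080). Of the 35 members, Proc varied least over the 12 libraries, with a coefficient of variation of 13.6%, and Fga most, at 41.1%, followed by C3 at 39.1%, Cfb at 37.6% and C6 at 31.4%.

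Single livers set much of the pattern. In selenium 5 all 35 members lay below their median over the 12 libraries, and it was the lowest library for 15 of them. Selenium 1 lay below the median for 24, control 2 for 27 and control 5 for 25. At the other end, selenium 2 was the highest library for 13 members and selenium 3 for 11. Together the 17 complement genes held 0.357 to 0.714% of all TPM in selenium livers, with a median of 0.589%, and 0.401 to 0.611%, with a median of 0.521%, in control livers. For the 18 coagulation genes the range was 0.606 to 1.25% in selenium livers, median 1.13%, and 0.665 to 1.01% in control livers, median 0.806%. Selenium 2, 3, 4 and 6 lay above every control on the coagulation share, at 1.25%, 1.19%, 1.12% and 1.13%, and selenium 1 and 5 lay at 0.776% and 0.606%. These sums are descriptions without a test.

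**Figure D4:**
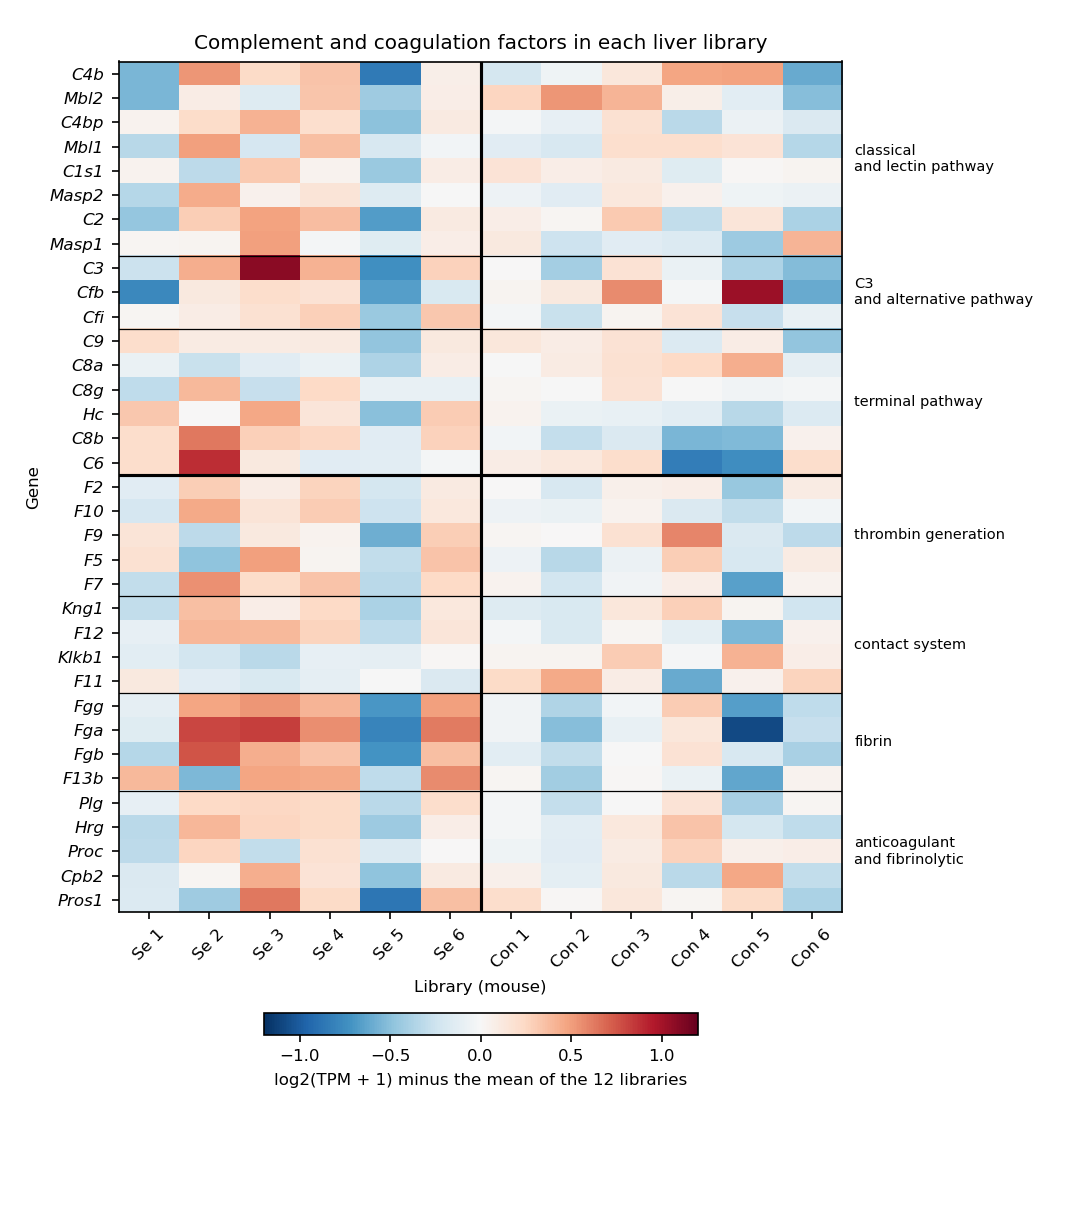
Log2(TPM + 1) of each member minus its mean over the 12 libraries, rows grouped by role with complement above the thick line and coagulation below it, selenium (Se) livers left and control (Con) livers right. The selenium 5 column is below the median for all 35 genes, and the fibrinogen rows are high in selenium 2, 3, 4 and 6.

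The same livers differed in other transcripts that the groups do not explain. Dbp, a clock gene with a strong daily rhythm in liver, was at 31.4 and 53.6 TPM in selenium 1 and 5 and 15.7 and 28.5 TPM in controls 5 and 6. In the other 8 livers it lay between 0.720 and 1.44 TPM, and the labels give no time of sampling. Selenium 1 and 5, the selenium livers with low fibrinogen, were thus those with high Dbp. The controls did not follow this throughout. The fibrinogen genes held 0.305% of TPM in control 5 and 0.388% in control 6, but 0.366% in control 2, where Dbp was 1.14 TPM. In the remaining controls they held 0.461 to 0.559%. With Dbp class (under 10 TPM or not) as a covariate, limma called 0 of the 35. In that fit 6 had an unadjusted p under 0.05 (4 higher, 2 lower), against 19.3% of all genes. Both groups held equally many livers of each class, so this covariate could not move any log2 change. That of Fga was thus 0.62 there too, and only its spread and p could differ (limma adjusted p = 0.126). The association of Dbp class itself with the members was not tested, nor was sampling time. Among the 8 livers with Dbp under 10 TPM, 4 of each group, limma again called 0 of the 35. Of them, 8 had an unadjusted p under 0.05 (C3, C8b, F7, F10, F12, Fga, Fgb and Fgg, all higher with selenium). Over all genes in that fit this share was 21.4% in both directions together, and the members' share in both directions was near it. As the 8 were all higher, the 21.4% is not a background for their direction. Positive log2 changes were more common there, in 27 of the 35 and in 58.5% of all genes. The share of all genes that were higher at that p was not computed for this fit. There the log2 change of Fga was 0.83 (limma adjusted p = 0.0629) and that of C8b 0.62 (limma adjusted p = 0.0784). Klkb1 and C8a had log2 changes of -0.25 and -0.23 in that fit.

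Saa1, a serum amyloid A gene and one of the most inducible acute phase genes of the liver, was at 8641 TPM in selenium 3 and 4541 TPM in control 5, against 66.0 to 1019.9 TPM in the other selenium livers and 62.6 to 896 TPM in the other controls. The highest C3 value was in selenium 3 and the highest Cfb value in control 5, and control 5 had the lowest Fga of all. Leaving out these 2 livers was chosen after seeing the data; the log2 changes were then 0.19 for C3, -0.28 for Cfb, 0.36 for Fga and 0.44 for C8b, and limma called 0 of the 35. Major urinary protein transcripts also took a varying part of each library, 26.2 to 39.8% of TPM in selenium livers and 12.97 to 33.5% in control livers. They enter every TPM value through the common total, and their part in the members' differences was not tested.

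**Figure D5:**
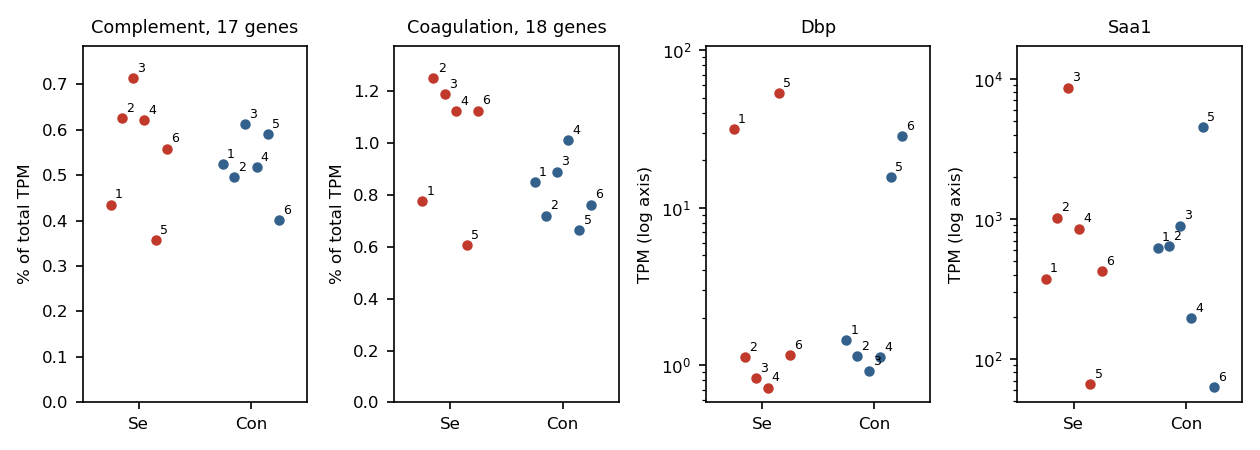
Share of total TPM held by the 17 complement genes and by the 18 coagulation genes (in percent), and TPM of the clock gene Dbp and the acute phase gene Saa1 on log axes, in each library numbered by mouse, selenium (Se, red) left of control (Con, blue). Selenium 1 and 5 have the lowest shares among the selenium livers and Dbp of 31.4 and 53.6 TPM, and Saa1 is highest in selenium 3 and control 5.

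The 3 fibrinogen chains varied together over the 12 livers. Correlations were computed on log2(TPM + 1) for the 13 pairs above and adjusted over them. For Fga and Fgg, Pearson's r was 0.98 (permutation p = 1e-05, adjusted p = 0.000130) and Spearman's rho 0.98 (permutation p = 1e-05, adjusted p = 0.000130), with r at 0.97 without the 2 libraries farthest from the median of the first gene. The p of 1e-05 is the smallest that 100000 permutations can give. For Fgb and Fgg, Pearson's r was 0.90 (permutation p = 0.000100, adjusted p = 0.000325) and Spearman's rho 0.92 (permutation p = 8e-05, adjusted p = 0.000347), with r at 0.88 without the 2 libraries farthest from the median of the first gene. For Fga and Fgb, Pearson's r was 0.87 (permutation p = 0.000390, adjusted p = 0.00101) and Spearman's rho 0.90 (permutation p = 0.000290, adjusted p = 0.000754), with r at 0.96 without the 2 libraries farthest from the median of the first gene. In that pair r was 0.97 within selenium livers and 0.53 within control livers; the difference between these was not tested.

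Neighbouring genes outside the fibrinogen cluster gave r of both signs. For F7 and F10, adjacent on chromosome 8, Pearson's r was 0.90 (permutation p = 6e-05, adjusted p = 0.000260) and Spearman's rho 0.90 (permutation p = 0.000270, adjusted p = 0.000754), with r at 0.85 without the 2 libraries farthest from the median of the first gene. Hrg and Kng1 on chromosome 16 lie 96560 bases apart, farther than the other pairs named here. For Hrg and Kng1, Pearson's r was 0.93 (permutation p = 4e-05, adjusted p = 0.000260) and Spearman's rho 0.94 (permutation p = 5e-05, adjusted p = 0.000325), with r at 0.88 without the 2 libraries farthest from the median of the first gene. For C2 and Cfb, whose genes nearly touch on chromosome 17, Pearson's r was 0.74 (permutation p = 0.00530, adjusted p = 0.0115) and Spearman's rho 0.85 (permutation p = 0.000810, adjusted p = 0.00176), with r at 0.54 without the 2 libraries farthest from the median of the first gene (permutation p = 0.106). The r of C2 and Cfb was 0.83 with group means removed (permutation p = 0.000850). Within selenium livers it was 0.97 and within control livers 0.79 (n = 6 each, without a test). Among the tests of this pair, only the r without those 2 libraries missed the threshold. For F11 and Klkb1, Pearson's r was 0.30 (permutation p = 0.347, adjusted p = 0.410) and Spearman's rho 0.52 (permutation p = 0.0879, adjusted p = 0.127), with r at 0.48 without the 2 libraries farthest from the median of the first gene. For C8a and C8b, Pearson's r was -0.69 (permutation p = 0.0138, adjusted p = 0.0256) and Spearman's rho -0.70 (permutation p = 0.0141, adjusted p = 0.0262), with r at -0.86 without the 2 libraries farthest from the median of the first gene. With group means removed the r of C8a and C8b was -0.39 (permutation p = 0.213), and within selenium livers it was 0.23 and within control livers -0.89 (n = 6 each, without a test).

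The partners of the lectin pathway did not pass as pairs, but for the rank correlation of Mbl1 and Mbl2. For Mbl1 and Mbl2, Pearson's r was 0.52 (permutation p = 0.0840, adjusted p = 0.137) and Spearman's rho 0.66 (permutation p = 0.0238, adjusted p = 0.0387), with r at 0.52 without the 2 libraries farthest from the median of the first gene. For Mbl1 and Masp1 r was -0.40 and rho -0.35 (permutation p = 0.199 and 0.267, adjusted p = 0.287 and 0.347), and for Mbl2 and Masp1 r was -0.34 and rho -0.27 (permutation p = 0.286 and 0.392, adjusted p = 0.372 and 0.463). C8g, on another chromosome than C8a and C8b, had r of -0.043 with C8a and 0.19 with C8b and rho of 0.10 and -0.014 (permutation p = 0.897 and 0.551 for r, adjusted p = 0.897 and 0.597). Over all 595 pairs of members the median r was 0.39, 470 were positive and 54 exceeded 0.8. Pairs that were not chosen as partners were as high, with an r of 0.96 for Fga and Plg and 0.94 for Cfi and Fgg, and partners were not tested against other pairs. Klkb1 was most like C8a, with an r of 0.78 over the 12 libraries. F11 and Klkb1 had the lowest medians, with a median r to the other members of -0.24 and -0.24, and C8a followed at -0.0058. All values of a library share its scaling, and the correlations over all pairs carry no test.

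The authors' deposited table gives its own comparison, with a log2 change turned here to selenium over control. Of the 35 members, 3 had an adjusted p under 0.05 in the authors' deposited table, against 9.87% of the 9980 genes tested here, and all 3 were higher with selenium, against 6.97% of those genes. The authors' deposited table gave C8b 0.62 (adjusted p = 0.00711), Fga 0.72 (adjusted p = 0.0389) and C4b 0.57 (adjusted p = 0.0438). For C4b the authors' deposited table thus has a higher value in selenium livers, while its own mean TPM was 404 in selenium livers and 418 in control livers. In 4 of the 35, C4b, C8a, C8g and C1s1, the sign in the authors' deposited table differed from that of the TPM fit, against 15.5% of the genes tested. For C8a the authors' deposited table gave 0.21 (adjusted p = 0.258), against -0.28 from TPM. How the log2 changes of the authors' deposited table were computed is not known here, and the reason for the difference in sign was not tested.

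The rest of the pathways held no call either. Of 33 further complement genes, among them C1q, regulators and receptors, 22 were abundant enough to test and 0 passed, with 11 positive and 11 negative log2 changes and a median of 0.089. Of 32 further coagulation genes 20 were tested and 0 passed, with 13 positive, 7 negative and a median of 0.036. At an unadjusted p under 0.05 in limma there were 2 and 5, against 18.5% of all genes. The smallest p belonged to C1s2, the close relative of C1s1, at 20.2 ± 2.64 TPM in selenium livers and 32.7 ± 10.4 TPM in control livers (log2 change -0.63, limma adjusted p = 0.104). C4a, the close relative of C4b, was at 173 ± 60.3 TPM in selenium livers and 128 ± 17.8 TPM in control livers (log2 change 0.39, limma adjusted p = 0.258). Tfpi, the inhibitor of the tissue factor pathway, was at 0.783 ± 0.279 TPM in selenium livers and 1.36 ± 0.382 TPM in control livers (log2 change -0.41, limma adjusted p = 0.166), and F2r, the thrombin receptor, at 1.25 ± 0.499 TPM in selenium livers and 1.92 ± 0.412 TPM in control livers (log2 change -0.38, limma adjusted p = 0.189). Tmprss6, a membrane protease of hepatocytes known for restraining hepcidin, was at 74.1 ± 10.7 TPM in selenium livers and 56.1 ± 13.4 TPM in control livers (log2 change 0.41, limma adjusted p = 0.189), and Serpinf2, the antiplasmin that inhibits plasmin, at 335 ± 89.8 TPM in selenium livers and 239 ± 31.3 TPM in control livers (log2 change 0.45, limma adjusted p = 0.216).

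The labels name both liver and hepatocyte, and the defining markers were those of whole liver. The 6 hepatocyte markers were present and summed to 34278 to 53089.8 TPM in selenium livers and 32639.6 to 54200.3 TPM in control livers. The 9 markers of Kupffer cells, the liver macrophages that make C1q, were all present, and summed to 67.7 to 298.5 TPM with selenium and 76.7 to 169.8 TPM in controls. Among them, C1qa, C1qb, C1qc and Vsig4 are also on the list of further complement genes. The log2 change was positive for all 9 Kupffer markers (median 0.43), and 0 passed in limma at an adjusted or an unadjusted p under 0.05. The 6 platelet markers summed to 1.54 to 7.91 TPM in selenium livers and 1.87 to 12.2 TPM in control livers, with 3 of 6 below 1 TPM in every library. The 7 sinusoidal endothelial markers summed to 13.3 to 29.6 TPM in selenium livers and 6.74 to 30.5 TPM in control livers. The 6 stellate cell markers summed to 50.5 to 106 TPM in selenium livers and 81.9 to 125 TPM in control livers. The 5 bile duct cell markers summed to 16.03 to 133 TPM in selenium livers and 24.98 to 269 TPM in control livers. The 5 red cell markers summed to 378 to 1493 TPM in selenium livers and 404 to 4270.0 TPM in control livers. The 5 neutrophil markers summed to 3.18 to 67.1 TPM in selenium livers and 8.47 to 92.6 TPM in control livers. The 5 T and B cell markers summed to 0.340 to 1.57 TPM in selenium livers and 0.690 to 2.29 TPM in control livers. All 4 stellate cell markers tested had a negative log2 change, and 2 had an unadjusted p under 0.05 in limma, Dcn at -0.55 (limma adjusted p = 0.190) and Ecm1 at -0.43 (limma adjusted p = 0.271), both named after their values were seen. In the other marker lists 0 had an unadjusted p under 0.05, where 18.5% of all genes tested did. No marker in these lists was at 0 in all libraries, and the part of other cells in the members' values was not tested.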

How the data were processed

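Liver RNA of 12 mice, 6 given the selenium-enriched fungus and 6 controls, was analysed from the authors' tables. Per the labels' protocols, RNA came from frozen tissue by TRIzol with an RNeasy clean-up, and libraries followed standard Illumina procedures. The tools were DESeq2, RSEM 1.2.8 and HISAT2 2.1.0 and the build GRCm39, per the submitters' processing notes; the sources used here do not say how strand was treated. The authors deposited TPM per gene and library, and the 12 single-library tables held the same values as the series table (100%). The deposited table also holds the authors' log2 change of control over selenium, whose sign was turned here, and the authors' own p-values, raw and adjusted. TPM keep no counts, so no count test was run, and each value depends on every other transcript of its library.

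Genes with at least 1 TPM in 6 or more libraries (9980) were fitted on log2(TPM + 1), a scale that understates changes of low genes, with limma 3.58.1 in R 4.3.3 (intensity trend, two-sided, no covariate, Benjamini-Hochberg, threshold 0.05), tested first on simulated data. Log2 changes are selenium minus control. Exact permutation tests used every labelling, 924 with all 12 libraries and fewer with libraries left out. With the replicate block, the ratio test flipped the signs of same-numbered differences instead. Correlations used 100000 permutations. The exact test per gene was computed in R, those of ratios and correlations in Python, and figures were drawn with matplotlib 3.10.9. The labels do not state that the samples are different mice, and p-values measure the spread between these samples, which may be technical. The members and lists were chosen with earlier results of these data known. Values in every group are given for the 6 members of each set with the smallest p, the 4 most abundant of each set, the fibrinogen and C8 chains and the 4 most variable members; of the further genes, the 6 with the smallest p are named, as are C8b and C8a as a ratio after their values were seen. The alternatives are the settings named in the closing section. Promoter sequences are RefSeq's (GRCm38.p6), for 27 of the 35 members (not C2, C4b, Cfb, Cfi, Kng1, Masp1, Plg and Proc); the files' build differs and no coordinates of the files are used.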

Additional observations from a re-analysis of the deposited data

Results flagged for a closer look

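In each group of 6 livers the highest and lowest values of the 35 genes, the 2 shares of TPM and the 13 ratios were compared with the others. A value was singled out when its gap to the nearest liver exceeded 0.625 of the group's range (Dixon's 95% limit for 6 values). Chance alone singles out about 1 in 20 groups, and 6 of 100 groups held such a value.

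C6 was at 127 TPM in selenium 2, against 62.1 to 79.1 TPM in the other selenium livers. Selenium 2 also had the highest ratio of C8b to C8a, 0.671, against 0.408 to 0.484 in the other selenium livers. C9 was at 218 TPM in selenium 5, against 324 to 349 TPM in the other selenium livers, and selenium 5 was low for all members. Masp1 was at 25.4 TPM in selenium 3, against 15.9 to 18.8 TPM, and selenium 3 also had the highest Saa1. In controls, C8g was at 323 TPM in control 3, against 278 to 292 TPM, a difference that is small in size. The ratio of Fgb to Fgg was 0.844 in control 5, the control with the highest Saa1, against 0.557 to 0.636 in the other controls.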

How the results depend on the processing

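The call of 0 members held under every alternative with an adjusted p, with a smallest limma adjusted p of 0.0520 (C8b, array weights). An unadjusted p gave 4. For the exact permutation test per gene this 0 says nothing about the members. Its smallest possible p, 0.00216, was reached by too few genes to pass adjustment over 9980. At an unadjusted p under 0.05 limma gave 8 members after median-of-ratios scaling (23.1% of all genes in that fit, and a median of all genes of 0.038), 11 without selenium 5 (21.0%) and 1 without control 5 and selenium 3 (13.4%). All genes called numbered 33 (2 higher, 31 lower), and 1 without a filter, 94 (53 higher, 41 lower) with median-of-ratios scaling, 12 with quantile normalization, 191 rescaled without mitochondrial-encoded genes, 56 with robust empirical Bayes, 255 with array weights, 0 in the exact permutation test per gene, 1842 at an unadjusted p, 7 without control 5 and selenium 3, and 7 to 171 with 1 library left out. They numbered 40 and 36 with 0.1 or 0.5 added to TPM in place of 1, and 24 with a filter of 5 TPM. Without the intensity trend there were 33, with Dbp class as a covariate 46, and with low Dbp 47. The cause of these changes was not tested. The median log2 change ran from -0.048 to 0.20 for complement and from 0.017 to 0.23 for coagulation genes over all alternatives.

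With the replicate number as a block limma called 3 genes and 0 members. Each library's deviations from its group's mean were correlated over the genes tested. Same-numbered libraries had r of -0.14 to 0.11 in these deviations. No selenium library correlated best with the control of its own number. Of the further pathway genes 0 passed, 7 at an unadjusted p, 1 among libraries with low Dbp and 0 to 1 with 1 library left out. Pair ratios past the threshold numbered 1, and 0 with the replicate block, with low Dbp or without control 5 and selenium 3, and 0 to 6 with 1 library left out. In these 3 the p of C8b over C8a was the smallest possible, 0.0312, 0.0286 and 0.00794, at log2 differences of 0.79, 0.86 and 0.67.

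Signs of small values turned. Log2 values were -0.056 for C2, -0.045 for C9, -0.048 for Masp2, -0.064 for Mbl1, -0.0058 for F5, -0.056 for Kng1, -0.066 for Cpb2, -0.030 for Hrg when rescaled without mitochondrial-encoded genes; 0.027 for the log2 ratio of Fgb over Fgg, -0.017 for the log2 ratio of Hrg over Kng1, 0.20 for C4b, 0.019 for C8g, 0.10 for Pros1 with low Dbp; 0.033 for C4b, 0.042 for Pros1 with array weights; and 0.090 for the correlation of C8a C8g, 0.0026 for C4b, 0.039 for C8g with median-of-ratios scaling. Without the 2 farthest libraries r was -0.26 for C8b C8g. With 1 library left out, or control 5 and selenium 3, the log2 values ran from -0.15 to 0.0059 for the log2 ratio of Fgb over Fgg, -0.030 to 0.11 for the log2 ratio of F7 over F10, -0.053 to 0.054 for the log2 ratio of Hrg over Kng1, -0.30 to 0.12 for the log2 ratio of Mbl1 over Masp1, -0.053 to 0.18 for C2, -0.21 to 0.084 for C4b, -0.13 to 0.014 for C8g, -0.039 to 0.15 for C9, -0.0043 to 0.25 for Masp1, -0.037 to 0.12 for Masp2, -0.063 to 0.11 for Mbl1, -0.031 to 0.20 for F5, -0.18 to 0.0066 for F9, -0.21 to 0.085 for Pros1, -0.026 to 0.12 for Kng1, -0.054 to 0.13 for Cpb2, -0.013 to 0.16 for Hrg.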

Other observations

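Regulators of liver plasma protein genes were measured in the same livers, from lists written with earlier results known. Of 19 acute phase genes tested, 11 were higher on average in selenium livers (median log2 change 0.034), and 0 passed the adjusted threshold in limma. An unadjusted p under 0.05 was found for 2, the regulators Cebpb and Stat3, against 18.5% of all genes tested. The summed level of the acute phase list ran from 4891 to 41302 TPM in selenium livers and from 5738 to 39303 TPM in control livers. Cebpb, the C/EBP-beta that activates acute phase genes, averaged 10.2 ± 3.63 TPM in selenium livers and 21.3 ± 5.14 TPM in control livers (log2 change -1.04, limma adjusted p = 0.0671). Stat3, which carries the interleukin-6 signal, averaged 16.7 ± 6.32 TPM in selenium livers and 10.0 ± 1.79 TPM in control livers (log2 change 0.61, limma adjusted p = 0.188), and Hnf4a, a main regulator of hepatocyte genes, 106 ± 19.2 TPM in selenium livers and 81.8 ± 19.7 TPM in control livers (log2 change 0.39, limma adjusted p = 0.243). Of 14 other secreted proteins, such as albumin and apolipoproteins, 5 were positive, with a median of -0.13, and of 10 liver transcription factors 6, with a median of 0.034. In limma 0 of either list passed, with 1 and 1 at an unadjusted p under 0.05, against 18.5% of all genes tested. Cebpb, Stat3 and Hnf4a were named after their values were seen.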
